A study of Mus musculus with 4 samples.

Results

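Proliferating cells were chosen by measured RNA counts among cells that had been sorted from mouse liver as monocyte-derived macrophages. A cell was counted as proliferating when it held at least 1 UMI (unique molecular identifier, 1 captured RNA molecule) of at least 3 of 6 genes of the late cell cycle, Mki67, Top2a, Ube2c, Birc5, Cdk1 and Nusap1. By this rule 145 of the 9609 retained cells were proliferating. Retained cells had at least 200 detected genes and at most 10% mitochondrial UMIs, and came from 12306 barcodes in 4 libraries. The MCD group was 2 libraries of liver cells from male wild-type C57BL/6 mice that were fed a methionine/choline-deficient diet for 6 weeks. The NCD group was 2 libraries from male wild-type C57BL/6 mice fed a normal control diet over the same period, and the mice of both groups were of matched weight and given as 8 weeks old. The MCD diet is a common mouse model of fatty liver with inflammation, which develops without the weight gain of the human disease. The sort took viable CD45+ Ly6G- cells with intermediate CD11b, and the sources differ on whether F4/80 was low or high. How many animals went into a library is not stated, so the spread between the 2 libraries of a diet may be technical, and diet cannot be told apart from library handling.

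A dividing cell copies its DNA in S phase and separates the copies in mitosis. Licensing factors such as the MCM helicase load onto DNA before S phase, cyclin-dependent kinases drive each transition, and kinesins, kinetochore proteins and the chromosomal passenger complex carry out mitosis. In the liver, circulating monocytes are mostly non-dividing, whereas progenitors of conventional dendritic cells can still divide after they have reached a tissue. Conventional dendritic cells fall into type 1 (cDC1), known for Xcr1, Clec9a and Irf8, and type 2 (cDC2), known for Cd209a, Clec10a and Mgl2. Neutrophil precursors divide in bone marrow while they make granule proteins such as Camp and Ngp.

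The 6 rule genes have different tasks in the cycle. Mki67 (chromosome 7, 135689784 to 135716361, minus strand) coats mitotic chromosomes. Top2a (chromosome 11, 98992943 to 99024189, minus strand) untangles DNA. Cdk1 (chromosome 10, 69335146 to 69352938, minus strand) is the mitotic kinase, and Ube2c (chromosome 2, 164769898 to 164778822, plus strand) is the ubiquitin-conjugating enzyme of the anaphase promoting complex. Birc5 (chromosome 11, 117849251 to 117855743, plus strand) belongs to the chromosomal passenger complex, and Nusap1 (chromosome 2, 119618298 to 119651244, plus strand) binds spindle microtubules. These positions are those of GENCODE M21 on GRCm38, the genome also called mm10.

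Promoter sequence is shown for 3 of the rule genes because the genes that define these cells move together and many cell cycle promoters are known to carry a cell cycle homology element and CCAAT boxes. The 300-base windows run from 250 bases before to 50 bases after the RefSeq gene start on GRCm38.p6, and are written 5′ to 3′ along the gene. Capitals mark TTTGAA, the core of the cell cycle homology element, and CCAAT, each searched on both strands (as TTCAAA and ATTGG there), and a CCAAT on one strand can share its last 2 bases with an ATTGG, as once in Ube2c. The windows are chr11:99024140-99024439 for Top2a, chr2:164769679-164769978 for Ube2c and chr10:69352863-69353162 for Cdk1.
Top2a: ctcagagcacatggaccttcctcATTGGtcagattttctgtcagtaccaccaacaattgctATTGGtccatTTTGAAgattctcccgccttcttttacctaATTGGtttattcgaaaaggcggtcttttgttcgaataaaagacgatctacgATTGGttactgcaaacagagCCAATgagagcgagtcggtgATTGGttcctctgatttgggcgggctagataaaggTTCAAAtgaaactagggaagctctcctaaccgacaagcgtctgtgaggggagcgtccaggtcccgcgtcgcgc
Ube2c: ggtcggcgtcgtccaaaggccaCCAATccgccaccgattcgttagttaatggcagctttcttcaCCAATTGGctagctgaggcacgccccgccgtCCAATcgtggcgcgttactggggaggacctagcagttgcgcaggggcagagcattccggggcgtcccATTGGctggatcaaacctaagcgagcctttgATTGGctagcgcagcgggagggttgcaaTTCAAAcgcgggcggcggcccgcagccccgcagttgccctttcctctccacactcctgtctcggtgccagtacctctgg
Cdk1: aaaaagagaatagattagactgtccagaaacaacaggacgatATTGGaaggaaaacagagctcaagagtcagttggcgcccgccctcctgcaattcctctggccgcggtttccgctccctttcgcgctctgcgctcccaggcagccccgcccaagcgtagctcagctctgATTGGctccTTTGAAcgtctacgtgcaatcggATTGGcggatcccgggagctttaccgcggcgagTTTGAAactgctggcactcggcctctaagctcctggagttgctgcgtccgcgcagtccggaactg
The Top2a window held 2 TTTGAA and 6 CCAAT matches, the Ube2c window 1 and 6, and the Cdk1 window 2 and 3. Mki67 also held both letters, while the Birc5 and Nusap1 windows held 0 of either. Of all 32851 RefSeq promoters of the same length, 17.9% held TTTGAA, 37.4% held CCAAT and 6.95% held both. Both stood in 13 of the 19 promoters found for the spindle and cytokinesis list, in 3 of 20 for the origin licensing and replication fork list, and in 0 of 9 for the homologous repair and checkpoint list. These matches describe letters in a window and were not tested for factor binding.

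The 145 cells were 24 and 33 cells of the MCD libraries (replicates 1 and 2), and 41 and 47 cells of the NCD libraries. Depth differed between the diets: the MCD libraries held 32975974 and 37772284 UMIs, against 7518597 and 7428431 in the NCD libraries. Proliferating cells had median counts of 33417.5 and 29986 UMIs in the MCD libraries and 4570 and 5137 in the NCD libraries, and other cells had 11992 and 12245 in the MCD libraries and 2153 and 2221 in the NCD libraries. In each library the proliferating cells thus had the higher median. Barcodes over the mitochondrial limit made up 11.6% and 9.44% of the MCD barcodes and 37.2% and 33.6% of the NCD barcodes. The table of MCD replicate 1 lists 27998 genes and those of the remaining libraries 28692, so all values rest on the 27998 in common. The libraries shared 29 barcode sequences, 18 of them among retained cells and 6 of those cells proliferating. Median ribosomal shares of the proliferating cells were 19.3% and 20.1% in the MCD libraries, against 28.6% and 25.5% in the NCD libraries, and the part of depth and RNA composition in the results was not tested.

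The rule itself set the levels of its genes, which are given as a description in CPM, UMIs of the summed cells scaled to a total of 1000000. Mki67 had 519 and 413 CPM in the proliferating cells of the MCD libraries and 169 and 344 CPM in those of the NCD libraries, and 4.67, 7.10, 4.56 and 5.54 CPM in the other cells of the same libraries in that order. Top2a had 576 and 503 CPM in MCD and 301 and 537 CPM in NCD proliferating cells. Ube2c had 719 and 301 CPM in MCD and 278 and 582 CPM in NCD proliferating cells. The diets overlapped for Top2a, Ube2c and Nusap1. Of the members, 27 held exactly 3 of the 6 genes, 35 held 4, 41 held 5 and 42 held all 6. At the threshold, 1 and 4 MCD cells and 15 and 7 NCD cells had exactly 3 genes, and 20 and 32 MCD cells and 11 and 18 NCD cells stayed outside with exactly 2. All 6 genes were seen in 13 and 16 MCD cells and 6 and 7 NCD cells, and the NCD cells were the shallower.

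The rest of the cell cycle program accompanied the rule genes and is likewise a description. Spindle and cytokinesis genes, among them kinesins and the passenger complex, took 0.277% and 0.182% of the UMIs of proliferating cells in the MCD libraries and 0.0835% and 0.187% in the NCD libraries, against 0.00494% to 0.00685% in other cells. All 23 genes of that list were higher in proliferating than in other cells in all 4 libraries, which held for 1996 of the 18158 genes with a UMI and for 19.2% of the 9748 genes tested below. The same held for 22 of the 25 licensing and fork genes, 16 of the 17 genes for histones and chromatin assembly and all 14 genes for homologous repair and checkpoints. Kinetochore and centromere genes took 0.182% and 0.126% of the UMIs in MCD and 0.0863% and 0.130% in NCD proliferating cells. Cell cycle brakes, which hold cells out of the cycle, stood apart: 3 of 15 were higher and 4 of 15 lower in all 4 libraries, and their summed level was 0.253% and 0.247% in MCD proliferating cells and 0.347% and 0.266% in NCD proliferating cells, against 0.395%, 0.391%, 0.348% and 0.322% in the other cells of those libraries.

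**Figure D1:**
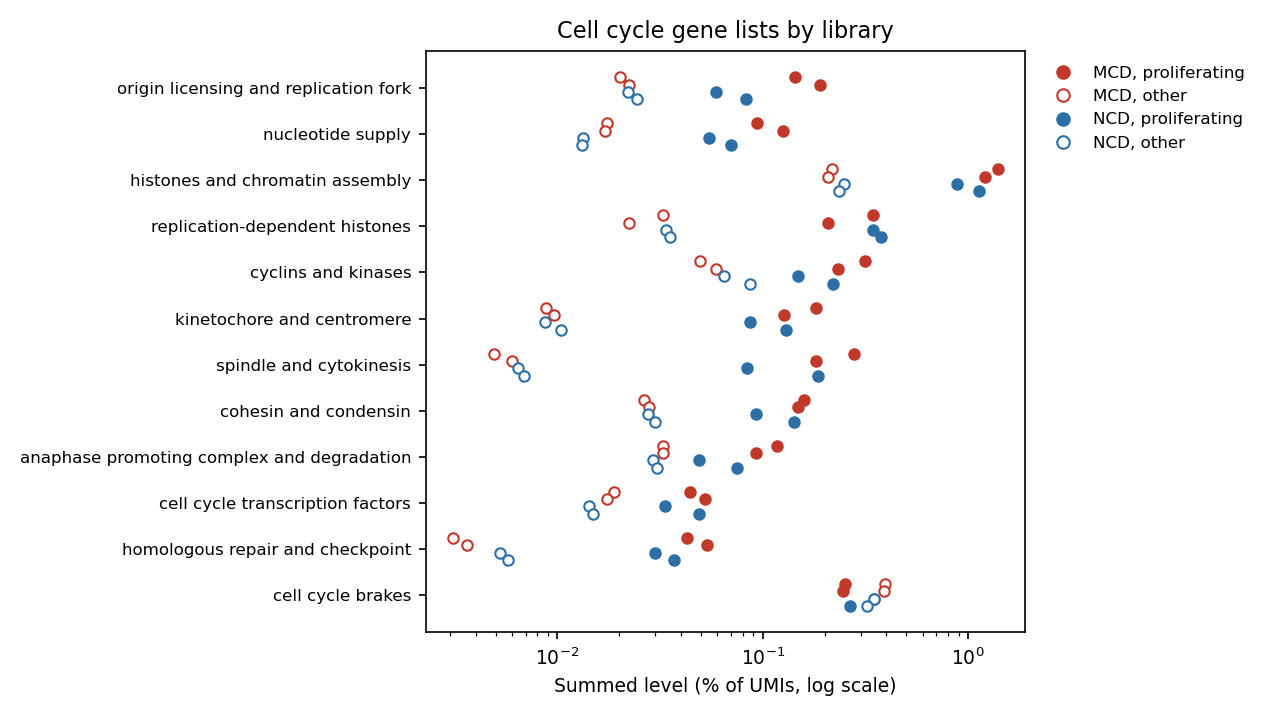
Summed level of each cell cycle list as a percent of UMIs (log scale) in proliferating cells (filled) and other cells (open) of each library, MCD in red above NCD in blue, 1 point per library. Spindle and cytokinesis genes sit between 0.0835% and 0.277% in proliferating cells and at or below 0.00685% in other cells, while the brakes lie close together.

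S-phase and mitotic genes were both present. The S-phase set was the 37 genes of the licensing and fork list and the nucleotide supply list. The mitotic set was 51 genes of the spindle, kinetochore and anaphase promoting complex lists. The last of these lists also took 0.0294% to 0.0327% of the UMIs of other cells. The sets are unequal in size, so neither a ratio nor a majority of UMIs places a cell in a stage. The UMIs of S-phase genes were 0.411 and 0.788 of those of mitotic genes in the MCD libraries and 0.522 and 0.391 in the NCD libraries, and the diets overlapped (exact two-sided permutation p = 0.667). Mitotic UMIs outnumbered S-phase UMIs in 15 of 24 and 19 of 33 MCD cells and in 32 of 41 and 41 of 47 NCD cells. The rule genes are mostly those of G2 and mitosis, and a call per cell also depends on depth.

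Fewer of the retained cells were proliferating in the MCD libraries. The share was 0.814% (24 of 2950 cells; 95% Clopper-Pearson interval 0.522 to 1.21%) and 1.05% (33 of 3138; 0.725 to 1.47%) in the MCD libraries, against 2.36% (41 of 1735; 1.70 to 3.19%) and 2.63% (47 of 1786; 1.94 to 3.48%) in the NCD libraries. The means were 0.933 ± 0.168% in MCD and 2.50 ± 0.190% in NCD (SD, n = 2 each), a difference of -1.56 percentage points. The diets did not overlap, and the exact two-sided permutation p was 0.33, the smallest that 2 libraries against 2 allow. Intervals cover counting error only.

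The share was also taken at equal depth. With each cell thinned to 2000 UMIs, which kept 2271 and 2634 MCD cells and 988 and 1059 NCD cells, the share was 0.705% and 0.532% in the MCD libraries and 1.72% and 2.83% in the NCD libraries. The diets also did not overlap at 1000 UMIs (0.287% and 0.200% in MCD, against 0.375% and 0.829% in NCD), where the intervals of NCD replicate 1 and both MCD libraries overlapped. Doublets were not removed. When the 5% of cells with the most UMIs in each library were left out, the share was 0.107% and 0.403% in MCD and 1.70% and 1.95% in NCD, so that 3 and 12 proliferating cells were left in the MCD libraries and 28 and 33 in the NCD libraries. The part of doublets was not tested.

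**Figure D2:**
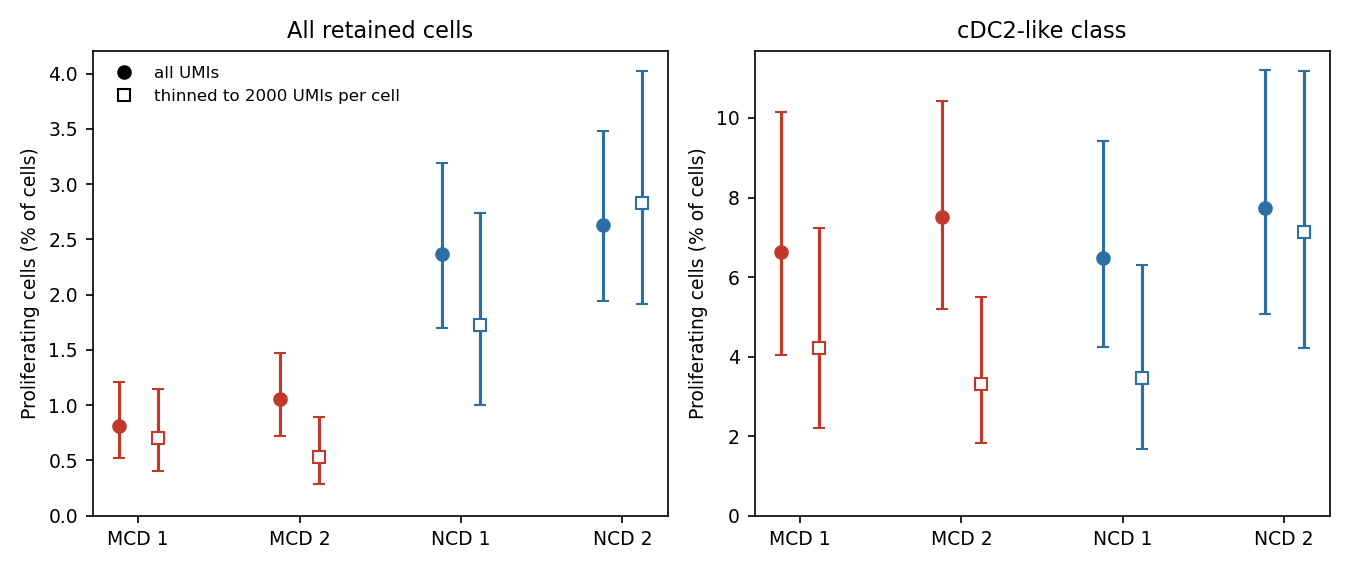
Share of proliferating cells (%) among all retained cells (left) and within the cDC2-like class (right) in each library, MCD in red left of NCD in blue, with all UMIs (circles) and after thinning to 2000 UMIs per cell (squares); bars are 95% Clopper-Pearson intervals. Over all cells the MCD libraries lie at 0.814% and 1.05%, below NCD at 2.36% and 2.63%, and within the cDC2-like class all 4 libraries lie between 6.48% and 7.74%.

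Most proliferating cells fell into a dendritic class. Classes were named from other cells, clustered without the genes of the cell cycle lists. Cycle genes outside those lists, such as 2810417H13Rik, were not removed. Each proliferating cell took the class of most of its 15 nearest neighbours. Of the 145, 120 had all 15 in 1 class and 1 had under 60%. The cDC2-like class took 101 of the 145 cells (69.7%): 19 of 24 and 32 of 33 in the MCD libraries, and 25 of 41 and 25 of 47 in the NCD libraries. The name comes from the other cells of the class, and its MCD members carried more RNA of the cDC1 than of the cDC2 list. In proliferating cells of the class the cDC1 list took 0.197% and 0.185% of UMIs in MCD and 0.0603% and 0.0424% in NCD, and the cDC2 list 0.147% and 0.137% in MCD and 0.112% and 0.147% in NCD. In its other cells the cDC1 list took 0.0860% and 0.0678% in MCD and 0.0283% and 0.0355% in NCD, below the cDC2 list at 0.212% and 0.2395% in MCD and 0.177% and 0.192% in NCD. The class thus holds members that go against its name, described below with Xcr1. The class's share of other cells was 9.16% and 12.7% in MCD and 21.3% and 17.1% in NCD. Endothelial-like cells gave 19 members, Ly6Chi monocyte-like cells 12, macrophage-like cells 5, NK and innate lymphoid-like cells 4, the basophil and mast cell-like class 1, and unnamed clusters 3. The cDC2-like part of the proliferating cells was 79.2% and 97.0% in MCD and 61.0% and 53.2% in NCD, and the diets did not overlap (difference 31.0 percentage points, exact two-sided permutation p = 0.33, the smallest possible).

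Within the cDC2-like class the diets had nearly the same share of proliferating cells. It was 6.62% (19 of 287 cells; interval 4.03 to 10.1%) and 7.51% (5.19 to 10.4%) in the MCD libraries and 6.48% (4.23 to 9.41%) and 7.74% (5.07 to 11.2%) in the NCD libraries. Summed by diet this was 51 of 713 cells (7.15%) in MCD and 50 of 709 (7.05%) in NCD. At 2000 UMIs per cell the values were 4.21% and 3.31% in MCD and 3.47% and 7.14% in NCD, so the diets overlapped again. Different clusters carried the class in the 2 diets: a cluster led by Cd209a, Clec10a and Klrd1 held all 51 MCD members and 4 of the 50 NCD members, and another led by Cd209a, Klrd1 and Tnni2 held the other 46. The second cluster also had 2810417H13Rik, a cell cycle gene outside the lists, among its 10 leading genes. This gene had 59.2 and 130 CPM in the other cDC2-like cells of NCD, against 1.12 and 5.68 CPM in those of MCD.

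Proliferating cells were few in the monocyte-like classes, and in NCD replicate 2 they were also found among macrophage-like cells. Ly6Chi monocyte-like cells were proliferating in 2 of 725 and 0 of 868 cells of the MCD libraries and in 3 of 439 (0.683%) and 7 of 469 (1.49%) cells of the NCD libraries. Granule-rich cells, described below, made up 1 of the 2 in MCD replicate 1, and 2 of the 3 and 2 of the 7 in NCD. The second MCD cell held 32 Elane, 41 Prtn3 and 64 Ly6c2 UMIs. The granule-rich cells go against the class name, and these shares include them. Of the Ly6Clo monocyte-like cells, 0 of 374 in MCD and 0 of 338 in NCD were proliferating, which allows shares of up to 0.802% and 0.888%; this limit, and those that follow, take 3 cells of the total as what a count of 0 allows and are not Clopper-Pearson bounds. The count was also 0 of 176 migratory dendritic-like cells in MCD (up to 1.70%) and 0 of 61 in NCD (up to 4.92%), and 0 of 108 lipid-associated macrophage-like cells in MCD (up to 2.78%). B-like cells had 0 of 63 and T-like cells 0 of 45 in MCD, which leaves room for 4.76% and 6.67%. Macrophage-like cells had 1 of 469 in MCD (0.213%; Clopper-Pearson interval 0.00540 to 1.18%) and 4 of 132 in NCD (3.03%; 0.832 to 7.58%). All 4 were among the 55 macrophage-like cells of NCD replicate 2 (7.27%; 2.02 to 17.6%), and 0 were among the 77 of NCD replicate 1.

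**Figure D3:**
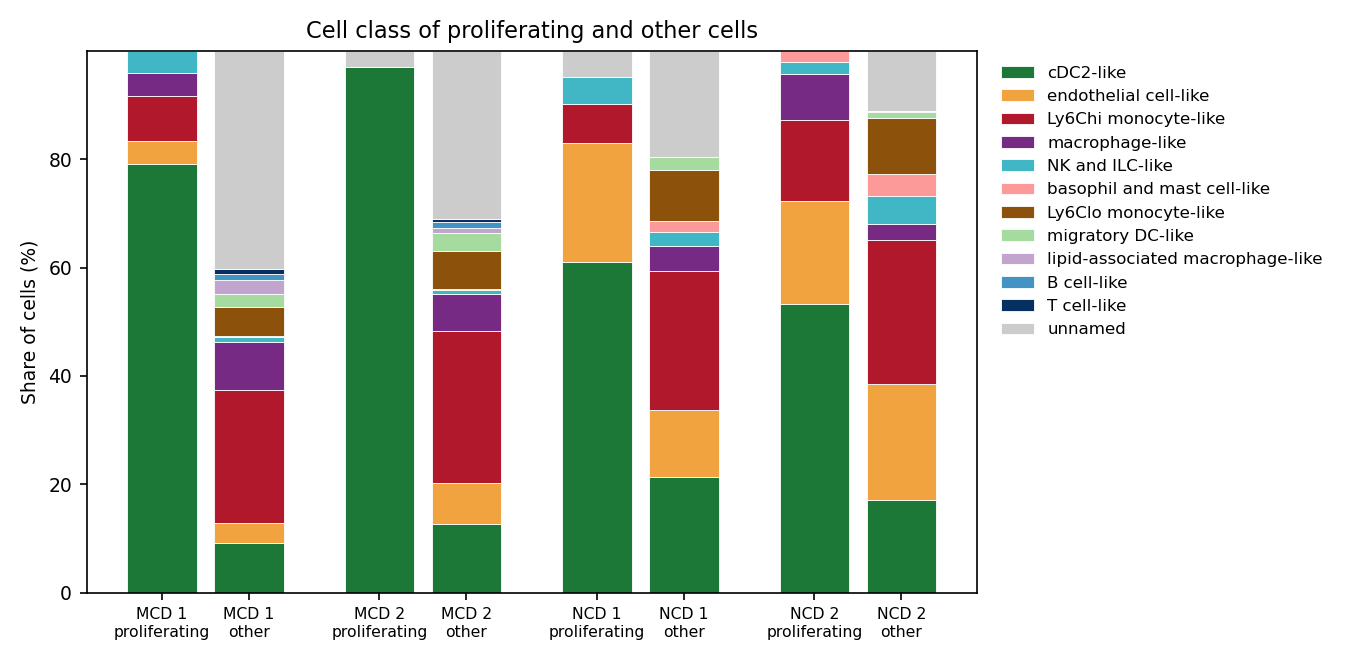
Cell class of proliferating cells and of other cells in each library as stacked shares of cells (%), MCD left of NCD and proliferating left of other. The cDC2-like class takes 53.2% to 97.0% of the proliferating cells and 9.16% to 21.3% of the others.

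The endothelial-like members were almost wholly from NCD. They numbered 1 and 0 in the MCD libraries and 9 and 9 in the NCD libraries, or 0.935% and 0% of that class in MCD, against 4.11% and 2.36% in NCD. Of the 19 cells, 15 held UMIs of both Ptprc, the leukocyte antigen CD45 on which the cells were sorted, and H2-Ab1, a class II gene, and 3 held neither. Other endothelial-like cells held Ptprc in 85 of 106 and 156 of 236 in MCD and 174 of 210 and 286 of 372 in NCD. Both genes were seen in 70 and 132 of those MCD cells and 114 and 148 of those NCD cells. The proliferating members had high median counts for their libraries, 26361 UMIs for the 1 MCD cell and 18384 and 8572 in the NCD libraries. The other cells of the class had medians of 7336.5 and 10528.5 UMIs in MCD and 4107 and 3812 in NCD. Whether these droplets held 1 cell each was not tested. Without this class the share of proliferating cells was 0.809% and 1.14% in MCD and 2.11% and 2.70% in NCD.

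Granule genes came from 5 cells. The summed secondary granule genes (Camp, Ngp, Ltf and others) took 6.61% to 15% of the UMIs of these 5 cells and at most 0.0832% in the other 140. Camp, an antimicrobial peptide of neutrophil granules, had 1465 and 0 UMIs in the MCD proliferating cells and 1025 and 1593 in the NCD proliferating cells, of which 100%, 100% and 99.9% lay in the granule-rich cells of the 3 libraries with any. The MCD cell had 1465 Camp, 1394 Ngp and 4740 S100a8 UMIs and all 6 rule genes. The NCD replicate 1 cells had 148 and 877 Camp and 37 and 49 Ngp UMIs, and the NCD replicate 2 cells had 731 and 860 Camp and 105 and 54 Ngp UMIs. Ly6g, the gene of the antigen that the sort excluded, had 2 UMIs in the MCD cell and 0 in the other 4. Only 8 retained cells were granule-rich at all (1% of UMIs or more), 2 in MCD and 6 in NCD, so 5 of 8 were proliferating. All 5 were placed in the Ly6Chi monocyte-like class and made up 5 of its 12 members.

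Summed over cells, Camp had 1788 and 0 CPM in MCD proliferating cells and 2881 and 5125 CPM in NCD proliferating cells, against 0.698, 0, 150 and 3.08 CPM in the other cells of those libraries. The fold change was 8.94 ± 1.61 on the log2 scale (edgeR adjusted p = 0.00787), and was no longer called without NCD replicate 2 (7.28, adjusted p = 0.0685). Ngp gave 8.14 ± 1.63 (adjusted p = 0.0121) and likewise lost its call without NCD replicate 2 (7.19, adjusted p = 0.0911). Ltf, lactoferrin, had 301 and 0 CPM in MCD and 14.1 and 70.8 CPM in NCD proliferating cells; its 6.80 ± 1.28 (adjusted p = 0.00754) was not called without MCD replicate 1 (4.01) or NCD replicate 2 (6.56). Genes of the earlier primary granules were lower. Elane, neutrophil elastase, had 39.1 and 0 CPM in MCD and 22.5 and 80.4 CPM in NCD proliferating cells. All 32 Elane UMIs of MCD came from 1 cell with 41 Prtn3 and 64 Ly6c2 UMIs and almost no secondary granule RNA. Elane (4.96 ± 1.12, adjusted p = 0.016) and Fcnb (3.55 ± 0.75, adjusted p = 0.0123) were not called without MCD replicate 1 (3.66 and 3.53) or without NCD replicate 2 (4.17 and 2.76).

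**Figure D4:**
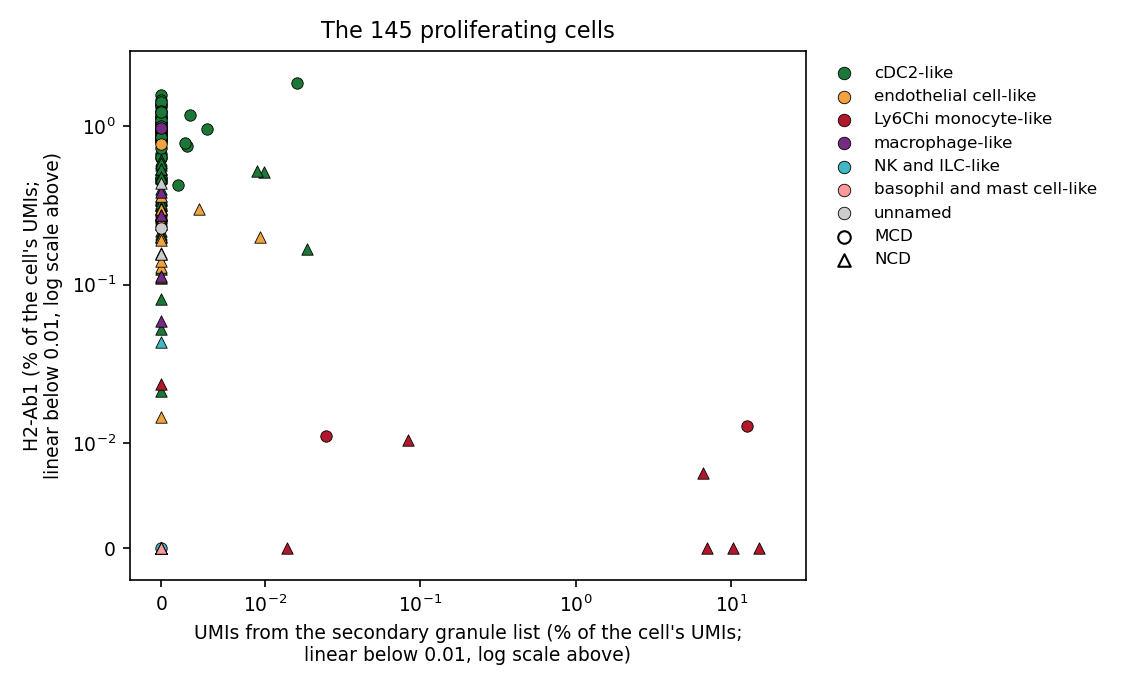
Each of the 145 proliferating cells by the share of its UMIs from secondary granule genes (x) and by its share from H2-Ab1, a class II gene (y; both axes linear below 0.01% and log above), coloured by class; circles are MCD and triangles NCD. The 5 cells at 6.61% to 15% granule UMIs have almost no H2-Ab1 and stand apart from the dendritic cells at the upper left.

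The next comparison was between proliferating and other cells of the same library, with library as a block, and is read only for genes outside the cell cycle lists. Of 9748 genes tested, 1031 were higher (10.6%) and 964 lower (9.89%) in proliferating cells at an adjusted p under 0.05, 20.5% in all. Outside the cell cycle lists, 866 of 9555 were higher (9.06%) and 961 lower (10.1%). The total of 1995 calls fell to 604 without MCD replicate 1 and 782 without MCD replicate 2. Markers of conventional dendritic cells were among the genes higher, and those of migratory dendritic cells and Ly6Chi monocytes among the genes lower. All 7 tested cDC1 markers were called higher, with a median log2 fold change of 1.95, against -0.04 over all genes; without MCD replicate 1 the count was 2 of 7. Of 9 cDC2 markers 6 were higher and 0 lower. Of 7 tested migratory dendritic markers 0 were higher and 3 lower (2 without MCD replicate 2), and the 1 tested marker of plasmacytoid dendritic cells was not called. Of 11 Ly6Chi monocyte markers 0 were higher and 7 lower, with 6 to 9 lower when any library was left out. Markers of endothelial cells, 6 of 8, and of macrophages, 6 of 9, were lower with all libraries, against 2 and 0 without MCD replicate 1, 4 and 1 without MCD replicate 2, and 2 and 6 without NCD replicate 2.

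Xcr1, the chemokine receptor of cDC1, had 70.8 and 69.2 CPM in MCD and 25.3 and 6.43 CPM in NCD proliferating cells, against 3.81, 3.18, 4.99 and 2.87 CPM in other cells. Every library was higher in proliferating cells, and the fold change was 3.69 ± 0.44 on the log2 scale (edgeR adjusted p = 0.0006). The cDC2-like members of NCD replicate 2 held 2 Xcr1 UMIs, so the value of that library lies near the floor of 3 UMIs. Cd34, a progenitor antigen, had 110 and 159 CPM in MCD and 39.3 and 48.3 CPM in NCD proliferating cells, against 11.5, 17.4, 10.2 and 10.9 CPM in other cells (2.79 ± 0.27, adjusted p = 0.000149). Among cDC2 genes, Ffar2, a short-chain fatty acid receptor, gave 2.78 ± 0.33, Kmo of tryptophan breakdown 1.84 ± 0.24, and Flt3, the receptor for the dendritic growth factor, 1.28 ± 0.22. Within the cDC2-like class Kmo and Flt3 were no longer called (0.05 and -0.01), and Cd209a, a lectin of cDC2, turned round: it was 0.61 ± 0.14 over all cells (adjusted p = 0.0178; not called without MCD replicate 1, MCD replicate 2 or NCD replicate 2, each at 0.53 to 0.61) and -1.32 within the class. Wdfy4, needed by cDC1 for cross-presentation, gave 1.82 ± 0.28.

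Several genes of monocytes and macrophages were lower. Lyz2, lysozyme, had 1278 and 1682 CPM in MCD and 1782 and 1699 CPM in NCD proliferating cells, against 13688, 16787, 4321 and 4367 CPM in other cells (-2.38 ± 0.38, adjusted p = 0.0032). The proliferating cells of the 4 libraries thus lay close together, and the other cells did not. Vcan, a matrix proteoglycan of classical monocytes, gave -3.18 ± 0.51 (-2.41 without MCD replicate 1 and -4.02 without MCD replicate 2), Trem2, the lipid receptor of macrophages, -2.22 ± 0.28, Cx3cr1 of patrolling monocytes -2.01 ± 0.37 and Csf1r, the macrophage growth factor receptor, -1.32 ± 0.28. Apol7c, high in migratory dendritic cells, had 0 and 0 UMIs in MCD and 1 and 1 in NCD proliferating cells, against 323, 690, 115 and 51 UMIs in other cells. The genes outside the lists with the largest decreases in all 4 libraries included Ms4a8a (-3.55 ± 0.33), Apoc1 (-3.39 ± 0.46) and Retnlg (-4.47 ± 0.42), and Retnla and Il4, which had 2 and 1 UMIs over all proliferating cells. Retnlg was -3.80 without MCD replicate 2, and was not called against other cells matched for UMIs (-0.82) or class (-0.96), nor Vcan for class (-1.05). The largest increases were of mitotic genes that the lists had left out, Fam64a (9.43), Kif14 (8.10), Iqgap3 (8.0) and Cdca3 (7.20), which are a description for the same reason as the rule genes.

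Since the make-up differed, the same contrast was made within the cDC2-like class, a comparison added after the data were seen. It set 101 proliferating against 1321 other cells, and called 783 of 6739 genes higher (11.6%) and 855 lower (12.7%), 24.3% in all, and outside the cell cycle lists 650 of 6584 higher (9.87%) and 850 lower (12.9%). The 1638 calls fell to 961 without MCD replicate 1 and 852 without MCD replicate 2. With scaling by library totals the split was 994 higher and 635 lower. The proliferating cells of the class carried more RNA of the cDC1 list and less of the cDC2 list in all 4 libraries. All 7 tested cDC1 markers were higher (5 to 7 when 1 library was left out), with a median log2 fold change of 1.10, and 4 of them were higher in all 4 libraries, against 19.8% of all genes tested. Of the 9 cDC2 markers 1 was higher and 5 lower (0 higher and 3 lower without MCD replicate 1 or without MCD replicate 2), median -0.43. Of 10 Ly6Chi monocyte markers 9 were lower (5 without MCD replicate 1 and 6 without MCD replicate 2), median -1.48, and 5 of 5 macrophage markers were lower.

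Xcr1 had 85.7 and 71.3 CPM in proliferating cDC2-like cells of MCD and 48.9 and 14.6 CPM in those of NCD, against 22.3, 14.6, 8.03 and 7.16 CPM in other cells of the class (2.02 ± 0.22, adjusted p = 5.9e-08). Tlr3, the receptor for double-stranded RNA of cDC1, had 84.2 and 45.7 CPM in MCD and 24.4 and 21.9 CPM in NCD proliferating cells, against 17.8, 11.7, 4.02 and 11.9 CPM in others (1.96 ± 0.24). In NCD the Xcr1 values rest on 6 and 2 UMIs and those of Tlr3 on few cells, near the floor of 3 UMIs. Irf8, the transcription factor of cDC1, had 746 and 725 CPM in MCD and 171 and 110 CPM in NCD proliferating cells, against 305, 237, 59.2 and 117 CPM in others (1.17 ± 0.17, adjusted p = 8.28e-06), and NCD replicate 2 was not higher. Wdfy4 gave 0.95 ± 0.16, Naaa 0.90 ± 0.15 and Clec9a, the receptor for dead-cell actin, 1.10 ± 0.21. Clec9a was not called without MCD replicate 2 (0.63, adjusted p = 0.203).

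Clec10a, a galactose-type lectin of cDC2, had 35.5 and 55.3 CPM in MCD and 16.3 and 36.5 CPM in NCD proliferating cells, against 266, 245, 156 and 126 CPM in others (-2.54 ± 0.20, adjusted p = 1.23e-10). Cd209a had 140 and 306 CPM in MCD and 424 and 526 CPM in NCD proliferating cells, against 426, 724, 872 and 957 CPM in others (-1.32 ± 0.11, adjusted p = 8.87e-10). Each library was lower for both genes. Mgl2, a related lectin, gave -1.78 ± 0.28, with -2.51 without MCD replicate 1 and -1.04 without MCD replicate 2. Cd209d gave -3.48 ± 0.36, with -4.23 without MCD replicate 2. Flt3 did not pass the test in the class, with 238 and 177 CPM in MCD and 40.7 and 175 CPM in NCD proliferating cells.

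F13a1, clotting factor XIII of monocytes, had 13.3 and 14.9 CPM in MCD and 8.15 and 0 CPM in NCD proliferating cells, against 106, 115, 49.2 and 42.9 CPM in others (-3.08 ± 0.26, adjusted p = 7.66e-10). Lyz2 had 944 and 1579 CPM in MCD and 692 and 394 CPM in NCD proliferating cells, against 3392, 4136, 1055 and 992 CPM in others (-1.47 ± 0.12). For both genes every library was lower. Ly6c2 gave -1.99 ± 0.31, and NCD replicate 1 was not lower. Cx3cr1 gave -1.90 ± 0.27, Hp, haptoglobin, -1.77 ± 0.25, Mrc1, the mannose receptor, -1.69 ± 0.31 (NCD replicate 2 was not lower), Adgre1, the F4/80 gene, -1.67 ± 0.29, and Apoe -1.0 ± 0.17. Among the 8 tested growth factor receptors 0 were higher and 4 lower (2 without MCD replicate 1 or MCD replicate 2), with -1.0 ± 0.19 for Csf1r (-0.62 without MCD replicate 1) and -0.88 ± 0.17 for Csf2rb, the shared chain of the GM-CSF receptor, which was not lower in NCD replicate 1 and not called without MCD replicate 2 (-0.65). Interferon and cytokine genes among the larger decreases were Cxcl10 (-2.69 ± 0.27; -1.94 without MCD replicate 2), Slfn5 (-2.48 ± 0.28), Ifitm6 (-2.23 ± 0.17) and Osm (-2.28 ± 0.24), and Nupr1, a stress gene, gave -2.93 ± 0.28.

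Of the genes outside the cell cycle lists that were higher in the class, 650 of 6584 (9.87%), Cd34, Spp1 and Cd63 are given first. Cd34 had 117 and 164 CPM in MCD and 48.9 and 58.4 CPM in NCD proliferating cells, against 48.1, 74.1, 13.1 and 27.4 CPM in others (1.14 ± 0.17, adjusted p = 1.58e-05). Spp1, osteopontin, had 143 and 31.9 CPM in MCD and 16.3 and 14.6 CPM in NCD proliferating cells, against 12.8, 10.9, 1.0 and 4.77 CPM in others. Its 2.56 ± 0.30 moved to 1.61 without MCD replicate 1 and 3.25 without MCD replicate 2. Each NCD value of Spp1 in proliferating cells lay under the floor of 3 UMIs. Cd63, a tetraspanin, gave 1.35 ± 0.33 but was not called by DESeq2 (adjusted p = 0.259). Spp1 and Cd63 belong to the lipid-associated macrophage list. Over all cells 1 of its 9 genes was higher and 5 were lower in the proliferating cells of all 4 libraries. The summed level of that list was lower in proliferating than in other cells of each library. Cell cycle brakes split: 3 of 11 were higher and 4 lower. Cdkn2c, the inhibitor p18 of the G1 kinases, had 84.2 and 62.8 CPM in MCD and 40.7 and 65.7 CPM in NCD proliferating cells, against 5.40, 7.46, 6.02 and 7.16 CPM in others (3.28 ± 0.25), and was 3.25 ± 0.27 over all cells. Btg2, which restrains entry into S phase, had 684 and 886 CPM in MCD and 269 and 248 CPM in NCD proliferating cells, against 1274, 1279, 467 and 409 CPM in others (-0.83 ± 0.10). The brakes belong to the lists fixed around the cycle, so these values are a description. Cdca3 (6.61) and Casc5 (6.04), mitotic genes outside the lists, are a description too.

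**Figure D5:**
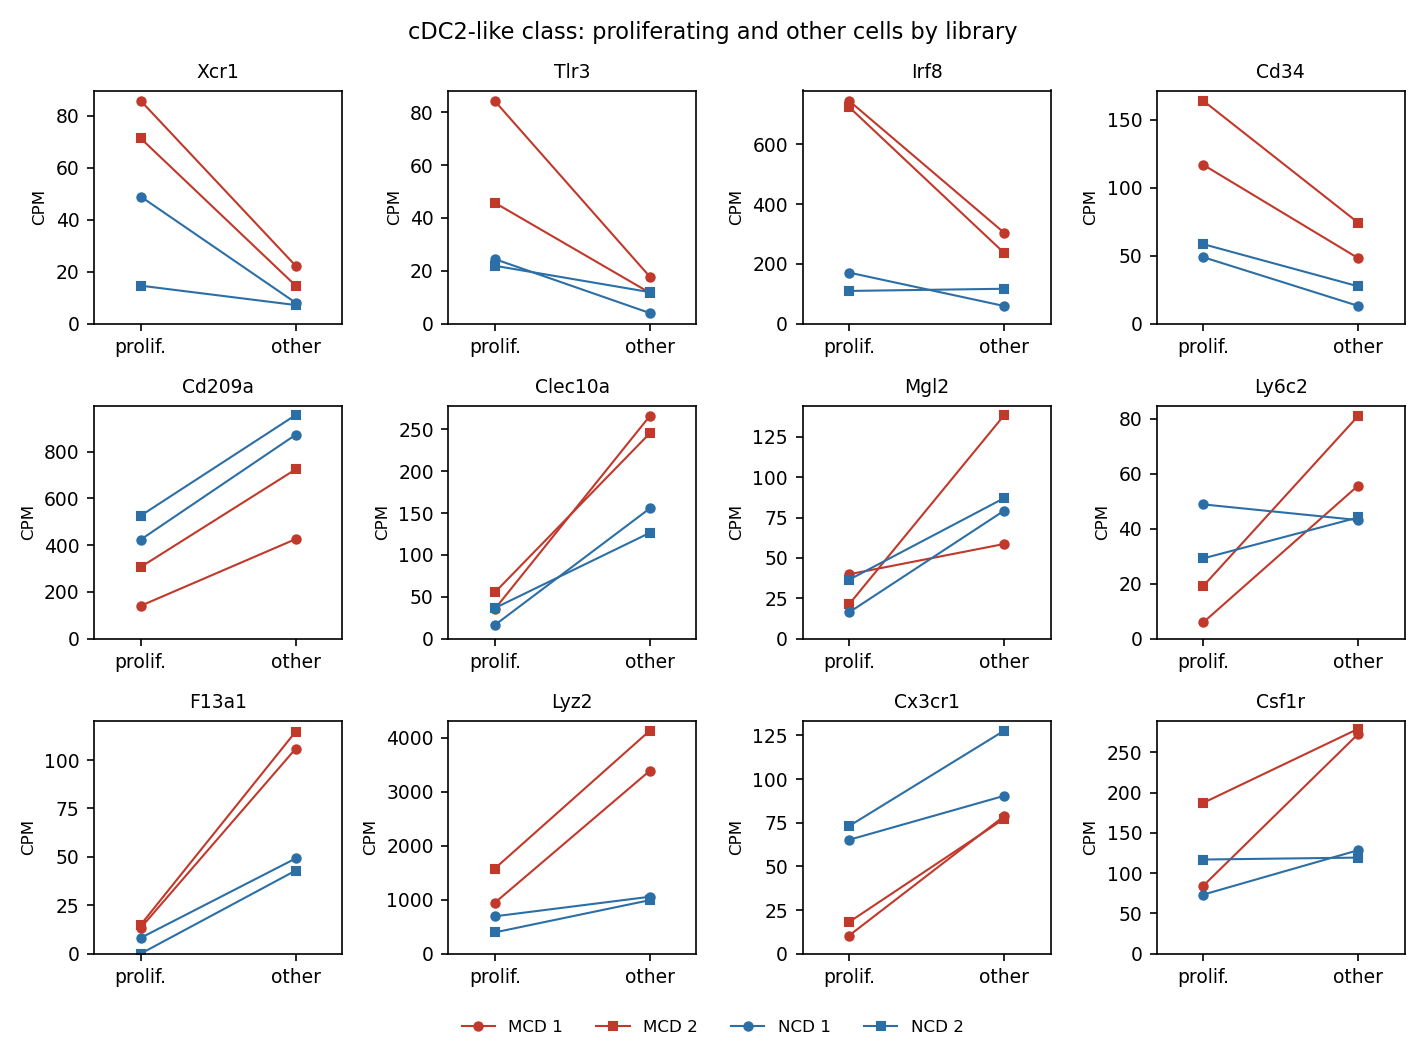
CPM of 12 genes in proliferating (left) and other (right) cDC2-like cells of each library, 1 line per library, MCD in red and NCD in blue, each axis starting at 0. Xcr1, Tlr3 and Cd34 are higher and Cd209a, Clec10a, Mgl2, F13a1, Lyz2 and Cx3cr1 lower in the proliferating cells of all 4 libraries.

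The cDC1 genes were highest in some cells of the class. A split of the 101 cells by an Xcr1 UMI, made after the values were seen and given with no test, put 18 cells on one side (7 and 8 in MCD, 2 and 1 in NCD) and 83 on the other. Of the 18, 16 had a Clec9a UMI, 16 a Tlr3 UMI, 18 an Irf8 UMI and 3 a Cd209a UMI; of the 83, the numbers were 15, 9, 28 and 56. In MCD replicate 1 the Xcr1 cells had 1646 CPM of Irf8 and 6.89 CPM of Cd209a, against 69.9 and 241 CPM in the rest of its cDC2-like members. MCD replicate 2 gave 1619 CPM of Irf8 and 13.1 CPM of Cd209a, against 296 and 447 CPM. The 2 sets differed in depth, with medians of 38900 and 6205 UMIs. Of the other cDC2-like cells, 25 of 268 and 22 of 394 in MCD and 7 of 361 and 5 of 298 in NCD had an Xcr1 UMI, and of the other Ly6Chi monocyte-like cells, which should lack the gene, 4 of 2489 (0.161%) did. When cells with an Xcr1 UMI were left out on both sides, Irf8 (0.35, adjusted p = 0.469), Clec9a (0.41) and Naaa (-0.05) were no longer called.

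Diet was then compared within the proliferating cells. Of 6559 genes, 660 were called higher (10.1%) and 820 lower (12.5%) in MCD, 22.6% in all. By CPM, which are scaled by library totals and not by the normalization of the test (TMM), the libraries did not overlap for 39.9% (MCD higher) and 25.8% (MCD lower) of genes. The total of 1480 was 755 without NCD replicate 1 and 729 without NCD replicate 2. With scaling by library totals 975 were higher and 634 lower, and the median gene moved to 0.17 on the log2 scale, against -0.01 in the normalization used. These sums mix lineages, and fewer cells of a type cannot be told apart from less RNA per cell.

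Endothelial genes were lower in MCD, in 8 of 8 tested, or 7 when any 1 library was left out, with a median log2 fold change of -3.60. Ptprb, the vascular phosphatase, had 14.6 and 12.4 CPM in MCD and 298 and 283 CPM in NCD (-4.59 ± 0.25, adjusted p = 3.51e-05). Kdr, the VEGF receptor, had 20.7 and 7.23 CPM in MCD and 292 and 241 CPM in NCD (-4.46 ± 0.38), with -5.27 without MCD replicate 1 and -3.76 without MCD replicate 2. Stab2, the hyaluronan receptor of sinusoids, gave -3.25 ± 0.47, with -3.95 and -2.59 without those libraries. Slco2a1, a prostaglandin transporter, had 0 UMIs in MCD and 28 in NCD, and was at least 25.0-fold lower against a floor of 3 UMIs over the diet; Nid1, a basement membrane gene, had 0 and 26, at least 23.2-fold lower. The 1 endothelial-like MCD cell and the 18 NCD cells described above move with these values.

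Some replication genes were higher in MCD over all proliferating cells, where 10.1% of all genes tested were called higher. Of 22 tested licensing and fork genes 9 were higher and 0 lower (5 higher without NCD replicate 1), median 1.29. Mcm3 had 127 and 162 CPM in MCD and 22.5 and 41.8 CPM in NCD (2.01 ± 0.34, adjusted p = 0.00437). Mcm7 had 160 and 185 CPM in MCD and 33.7 and 67.6 CPM in NCD (1.61 ± 0.32). Rpa2, which binds single-stranded DNA, gave 2.29 ± 0.41, Uhrf1, which keeps DNA methylation through replication, 1.93 ± 0.33, and Incenp of the passenger complex 1.70 ± 0.33 (2.31 without NCD replicate 2). E2f1, the S-phase transcription factor, had 36 and 61 UMIs in MCD and 0 and 2 UMIs in NCD. Within the cDC2-like class 1 of 19 licensing and fork genes was called, Mcm3 (1.68 ± 0.49, edgeR adjusted p = 0.0422), and Mcm7 (0.75) and Rpa2 (1.58) were not. Of all genes tested in the class 4.49% were called higher. The 1 of 19, like the 1 of 23 spindle genes below, is near that share and is no result about the list. Spindle genes were higher for 6 of 23 over all cells and 1 of 23 in the class, and without NCD replicate 1 they were 1 and 0. The greater depth of the MCD cells moves with these values, and without the 5% of cells with the most UMIs Mcm3 (1.36) and Uhrf1 (1.45) were not called. The rule picks cells by late cycle genes, and its part in these values was not tested.

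Some lineage genes also differed by diet. Of all genes tested in this contrast 10.1% were called higher and 12.5% lower in MCD. Wdfy4 had 383 and 384 CPM in MCD and 73.1 and 61.1 CPM in NCD (2.33 ± 0.21, adjusted p = 0.000248). Napsa, a dendritic aspartic protease, had 466 and 428 CPM in MCD and 92.7 and 119 CPM in NCD (1.90 ± 0.20). H2-DMb2, a class II peptide loader, gave 2.18 ± 0.33 and Lgals3, galectin-3, 1.76 ± 0.14. Wdfy4 was not called without the 5% of cells with the most UMIs (1.40, adjusted p = 0.0875). Of 7 cDC1 genes 6 were higher in MCD (4 without NCD replicate 1 and 2 without NCD replicate 2). Of 10 Ly6Clo monocyte genes 5 were lower (3 without NCD replicate 1), among them the integrin gene Itgal (-2.37 ± 0.27), and 4 of 10 Ly6Chi genes (2 without NCD replicate 1 and 1 without NCD replicate 2), among them Plac8 (-1.39 ± 0.20). Adgre1 gave -2.59 ± 0.40 and Mrc1 -3.29 ± 0.42 (-2.69 without NCD replicate 2). Sept3, a septin, had 51 UMIs in MCD and 0 in NCD, at least 6.34-fold higher.

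The diet contrast within the 101 proliferating cDC2-like cells, also added after the data were seen, called 218 of 4852 genes higher (4.49%) and 347 lower (7.15%) in MCD, 11.6% in all. Cluster 4, which holds the MCD cells, and cluster 5, which holds most NCD cells, carry the 2 sides. Scaling by library totals gave 841 higher and 184 lower with a median of 0.62, so directions of small changes depend on the scaling. By CPM, on the scale of library totals, the libraries did not overlap for 54.5% (MCD higher) and 11.8% (MCD lower) of genes. Of 7 cDC1 genes 2 were higher and 0 lower, and of 9 cDC2 genes 2 were higher and 2 lower. Irf8 had 746 and 725 CPM in MCD and 171 and 110 CPM in NCD (1.89 ± 0.27, adjusted p = 0.000628), and 0.29 (adjusted p = 0.784) without cells with an Xcr1 UMI. Wdfy4 gave 1.80 ± 0.28, Napsa 1.46 ± 0.33 (0.96 without NCD replicate 1 and 2.44 without NCD replicate 2) and Lgals3 1.48 ± 0.24. Klrd1, a lectin-like receptor of cDC2, had 231 and 193 CPM in MCD and 415 and 343 CPM in NCD (-1.36 ± 0.24). CPM are scaled by library totals and the fold changes by TMM, so the 2 differ in size. By library totals Klrd1 gave -0.81 and Irf8 2.44. Cd209a gave -1.58 ± 0.32 (-1.02 without MCD replicate 1 and -2.15 without MCD replicate 2) and Plac8 -1.77 ± 0.27. Cx3cr1 gave -2.71 ± 0.50 from few UMIs, 7 and 17 in MCD and 8 and 10 in NCD (10.3, 18.1, 65.2 and 73.1 CPM). Without MCD replicate 1 or without MCD replicate 2, Cx3cr1 did not pass the low-count filter and was not tested, so its call could not be checked there. DESeq2 gave Cx3cr1 no adjusted p.

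Several of these diet differences stood in the other cells of the class too, whose values are given beside them without a test of their own. Lgals3 had 1243 and 1227 CPM in MCD and 367 and 256 CPM in NCD proliferating cells, and 1491 and 1505 CPM in MCD and 354 and 321 CPM in NCD other cells. Plac8 had 975 and 841 CPM in MCD and 2079 and 1894 CPM in NCD other cells. The difference thus showed in both kinds of cells for these genes.

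Some cycle genes differed by diet within the class. The rule picks cells by late cycle genes at unequal depth, so the cycle stages that it admits may differ by diet. Over all proliferating cells, mitotic UMIs outnumbered S-phase UMIs in 62.5% and 57.6% of MCD cells and 78.0% and 87.2% of NCD cells. These calls use the gene sets of unequal size given above and do not place a cell in a stage. The part of the rule in the values below was not tested. H2afx, the histone variant phosphorylated at DNA breaks, had 603 and 400 CPM in MCD and 114 and 95.0 CPM in NCD (1.75 ± 0.32, adjusted p = 0.00333). H2afv, another variant, went the other way with 433 and 376 CPM in MCD and 823 and 957 CPM in NCD (-1.65 ± 0.20), as did the histone gene Hist1h2ae (-1.63 ± 0.22). By library totals, the scale of the CPM, H2afx gave 2.30, H2afv -1.11 and Hist1h2ae -1.09. Ube2s, the partner of Ube2c in the anaphase promoting complex, gave 1.67 ± 0.30, and Cdc26, a subunit of that complex, -1.77 ± 0.37. Btg2 gave 1.10 ± 0.24. Nusap1, a rule gene whose levels the choice of cells set, had 256 and 165 CPM in MCD and 285 and 387 CPM in NCD, given as a description. Bcl7c, Ssbp4 and Khk had 128, 122 and 120 UMIs in MCD and 0 each in NCD, at least 6.85, 6.53 and 6.42-fold higher.

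Whether the contrast of proliferating with other cells depended on diet was tested as a diet by cell kind term. Over all cells 68 of 10689 genes (0.636%) were called with a higher and 286 (2.68%) with a lower contrast in MCD, 3.31% in all. Within the cDC2-like class the counts were 34 (0.44%) and 9 (0.117%) of 7719, 0.557% in all. For the cDC1 list the term was called higher for 5 of 8 over all cells and 0 of 8 within the class, and for the Ly6Chi monocyte list lower for 6 of 11 and 1 of 11.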

How the data were processed

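The data were droplet single-cell libraries from sorted mouse liver cells, 2 per diet. The deposited matrices hold UMI counts per gene and cell barcode; per the file headers they were written by Cell Ranger 3.0.2, and per the submitters' processing notes the genome was mm10. How reads were aligned and cells called is not stated there. The members, gene lists and comparisons were chosen with earlier results of these data known.

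A barcode was kept with 200 genes or more and a mitochondrial share of 10% or less, over the 27998 genes shared by all libraries; 65 symbols stood on 2 identifiers, and 694 genes listed in only some libraries were left out. No doublet caller was run. Other cells were clustered without the genes of the cell cycle lists (2000 variable genes, 30 principal components, 15 neighbours, Leiden resolution 1, scanpy 1.11.5). Cycle genes outside those lists were not removed. Clusters were named from at least 3 markers of 24 lists among their 50 leading genes. Names are by likeness only, and 7 of 26 clusters stayed unnamed. UMIs were summed per library and kind of cell and tested with edgeR 4.0.16 (quasi-likelihood F test, TMM, filterByExpr, Benjamini-Hochberg over all genes, threshold 0.05, R 4.3.3). Fold changes are log2 with their standard error. CPM values are scaled by library totals and not by TMM, so a fold change can differ in size from the CPM beside it. DESeq2 1.42.0, other scalings, filters, thresholds and each library left out were alternatives; the comparisons within the cDC2-like class, and leaving out granule-rich cells, cells with an Xcr1 UMI or the endothelial-like class, were chosen after seeing the data. Total depth was 7428431 to 37772284 UMIs per library, so levels near 3 UMIs, the floor used for bounds, are not resolved. Named genes were the 10 largest called changes in each direction (for proliferating against other cells, outside the cycle lists and the same way in all 4 libraries), the list members and the rule markers, of which the text gives a selection; the choice leaned on genes that kept their call when a library was left out. Some named genes are not reported here. The scripts were tested on simulated data. Depending on the comparison, they called 5.43% to 24.2% of the simulated 2-fold changes and 35.1% to 89.5% of the 4-fold changes. A gene that was not called may thus still differ.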

Additional observations from a re-analysis of the deposited data

Results flagged for a closer look

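The contrast of proliferating with other cells differed between the diets for 354 of 10689 genes (edgeR, diet by cell kind term), 68 higher and 286 lower in MCD, or 3.31% of genes. Scaling by relative log expression gave 96 higher and 209 lower. Within the cDC2-like class the same test called 43 of 7719 genes (0.557%), 34 higher and 9 lower in MCD, against 20 and 11 with library totals. These counts moved with settings. The first was 0 by edgeR when at least 2 of the 6 genes were asked for (927 genes at an unadjusted p under 0.05), 31 without the 5% of cells with the most UMIs, 133 with thinned sums, 213 by DESeq2 and 536 without NCD replicate 2. The second was 6 by DESeq2, 3 without cells with an Xcr1 UMI, 17 without MCD replicate 1, 23 without MCD replicate 2 and 11 without NCD replicate 2.

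A set of 3 genes within the class, picked after their values were seen, differed by that test of the difference. For Cebpb, a transcription factor of myeloid differentiation, the difference was -1.74 ± 0.25 (adjusted p = 2.29e-09): proliferating cells had 180 and 297 CPM in MCD and 269 and 256 CPM in NCD, against 783 and 825 CPM in MCD and 247 and 256 CPM in NCD other cells. For Id3, which blocks helix-loop-helix factors, it was -1.31 ± 0.18, and without NCD replicate 2 it was not called (-1.01, adjusted p = 0.0702). For the chemokine Ccl5 it was -2.92 ± 0.42, and without NCD replicate 1 it was not called (-2.61, adjusted p = 0.0738). By DESeq2, Cebpb (adjusted p = 0.0752) and Id3 (adjusted p = 0.243) were not called. Without cells with an Xcr1 UMI, Cebpb was also not called (-1.47, edgeR adjusted p = 0.0508).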

How the results depend on the processing

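Each library was left out in turn, and where that changed a call the cause was not tested. Genes called for diet in all proliferating cells (1480) ranged from 729 to 1229, for proliferating against other cells (1995) from 604 to 2555, for the difference between diets (354) from 240 to 536, and within the cDC2-like class from 422 to 477 for diet (565), 852 to 1717 for proliferating against other cells (1638) and 11 to 46 for the difference (43). The difference in share (-1.56 percentage points) ranged from -1.70 to -1.43 and its diets never overlapped in any setting tried.

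For diet, DESeq2 called 641 genes, leaving out the 5% of cells with the most UMIs 361 and the cDC2-like class alone 565. Proliferating against other cells gave 694 with sums thinned to the smallest and 996 with other cells matched by class. The difference between diets gave 213 with DESeq2, 569 with no filter on low counts, 31 without the 5% with the most UMIs, 133 thinned, 43 in the cDC2-like class and, by edgeR with at least 2 of the 6 genes, 0 (927 genes at an unadjusted p under 0.05). Within the class, library totals gave 1025 genes for diet, DESeq2 and leaving out cells with an Xcr1 UMI gave 1040 and 1055 for proliferating against other cells, and 6 and 3 for the difference. The cDC2-like share (means 7.07% in MCD and 7.11% in NCD) was 2.10% and 1.47% at 1000 UMIs per cell, 3.76% and 5.31% at 2000, 10.9% and 9.95% with at least 2 genes, and 5.14% in NCD with at least 4. Signs turned for Flt3 (-0.010) and Cd209a (-1.32) in the cDC2-like class, for Cd209a with other cells matched by class (-1.04), and for Naaa without cells with an Xcr1 UMI (-0.050).

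With a replicate block the diet count was 1528, and 383 within the class; the replicate numbers share no stated source, and deviations of same-numbered libraries had a correlation of -0.04. Low depth in NCD limits what its cells can show: genes near 3 UMIs per diet were not resolved.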
